A study of Rattus norvegicus with 6 samples.

Results

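FGF ligands, their receptors and the FRS docking adaptors were followed in the dorsal root ganglia (DRG) of rats with chronic constriction injury (CCI) and of sham rats. The 10 members were Fgf1, Fgf2, Fgf7, Fgf9, Fgf13, Fgfr1, Fgfr2, Fgfr3, Frs2 and Frs3. They were chosen by gene symbol from the 43350 rows of the count and FPKM table, with the CCI against sham differences of these same libraries already known, so their differences between the groups are given as a description and not as a test. For a symbol carried by several rows, the protein-coding row was taken, then the row with the most counts. All 10 members were found, and 9 of them passed the filter on low values, a mean FPKM of at least 0.5. Fgfr3 did not pass it.

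All 6 animals were male Sprague-Dawley rats, and the tissue was the L4 to L6 DRG on the operated side 11 days after surgery. In the CCI group the left sciatic nerve was loosely ligated, and in the sham group it was exposed without ligation, although the sample labels give the sham treatment as none. Each group held 3 libraries. The methods describe a separate rat for every library, while the labels' protocol speaks of pooled samples. Total RNA depleted of ribosomal RNA was sequenced to between 75423546 and 87615743 counts per library, so that the limit a count of 0 allows, 3 counts, lies between 0.0342 and 0.0398 CPM (counts scaled for library size). The p-values measure the spread between these libraries. All markers of sensory neurons, satellite glia and Schwann cells that were looked up had counts in every library, as DRG tissue should.

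Fibroblast growth factors are secreted proteins that bind receptor tyrosine kinases together with heparan sulfate. The activated receptor phosphorylates the docking protein FRS2 at the membrane, and FRS2 recruits GRB2 and the phosphatase SHP2, through which the Ras and ERK cascade is switched on. FRS2 is also used by the neurotrophin receptors of the TRK family, which are carried by sensory neurons of the DRG. Fgf13 belongs to a separate branch of the family, whose proteins stay inside the cell and bind voltage-gated sodium channels.

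The promoters of Frs2 and of its paralog Frs3 are shown because the first gene had the largest group difference of the members and the second is the closest to compare it with, and that of Fgf1 because it was the other member past the study's limits. The sequences are from RefSeq on build GRCr8, 250 bases before to 50 bases after the start, 5′ to 3′ on the gene's strand, at chr7:54678607-54678906 (minus strand) for Frs2, chr9:20794773-20795072 (minus strand) for Frs3 and chr18:30961344-30961643 (minus strand) for Fgf1. Capitals mark a GC box (GGGCGG or, on the other strand, CCGCCC) and a match to the ETS core CCGGAAGT on either strand.
Frs2: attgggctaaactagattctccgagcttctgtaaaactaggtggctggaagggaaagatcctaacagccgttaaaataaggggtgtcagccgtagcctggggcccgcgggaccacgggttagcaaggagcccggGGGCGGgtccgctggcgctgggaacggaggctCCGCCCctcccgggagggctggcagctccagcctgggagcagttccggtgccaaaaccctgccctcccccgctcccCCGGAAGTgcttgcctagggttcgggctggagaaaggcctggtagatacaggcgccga
Frs3: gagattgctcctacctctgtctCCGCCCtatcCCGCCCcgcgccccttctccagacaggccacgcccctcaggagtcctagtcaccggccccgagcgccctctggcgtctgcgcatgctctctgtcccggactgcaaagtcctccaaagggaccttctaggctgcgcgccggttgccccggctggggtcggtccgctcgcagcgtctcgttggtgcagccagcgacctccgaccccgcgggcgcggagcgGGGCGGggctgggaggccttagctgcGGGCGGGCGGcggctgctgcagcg
Fgf1: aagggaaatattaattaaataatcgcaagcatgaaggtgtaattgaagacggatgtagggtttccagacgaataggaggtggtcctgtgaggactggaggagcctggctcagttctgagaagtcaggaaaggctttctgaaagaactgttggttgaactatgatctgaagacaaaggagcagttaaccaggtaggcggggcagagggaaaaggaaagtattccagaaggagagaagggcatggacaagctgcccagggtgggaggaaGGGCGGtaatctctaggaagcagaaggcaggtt
The Frs2 promoter held 2 GC boxes and 1 ETS match with a GC content of 64.0%, against 5 GC boxes, 2 of them overlapping each other, and no ETS match with 72.3% GC in Frs3. The Fgf1 promoter held 1 GC box and had a GC content of 48.3%, close to the median of 51.7% over all 33469 promoters of the table. GGGCGG on either strand was found in 33.1% of all promoters and in 5 of the 9 members that had an entry, and CCGGAAGT in 3.81% of all promoters and in Frs2 as 1 of those 9. The motifs were chosen after the sequences had been read, and a match is a run of letters and not a shown binding site.

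Per transcript length, the members spanned a wide range of levels. Fgf13 was the highest, with a mean FPKM of 108 ± 3.40 (SD over the 6 libraries), followed by Fgf1 at 48.3 ± 14.5 and Fgfr1 at 26.1 ± 1.80, and the library ranges of these 3 genes overlapped neither each other nor the next gene. Fgf7 (6.29 ± 1.46), Frs2 (4.21 ± 3.40), Frs3 (4.07 ± 1.16) and Fgf9 (3.94 ± 0.769) formed a run in which each overlapped the next. Fgfr2 (2.27 ± 0.485) and Fgf2 (1.86 ± 0.427) overlapped each other and also the lower libraries of Frs2 and Frs3, while lying below every library of Fgf9 and Fgf7, and Fgfr3 was the lowest at 0.212 ± 0.0947. The range for Frs2, from 1.75 to 8.76 FPKM, was the widest in proportion among the 9 members that passed the filter. The FPKM of Fgf7 rests on a row of only 761 bases, and the row that holds Fgf2 also carries the symbol Bbs12, a chaperonin-like protein of the cilium, so the reads of these 2 genes cannot be told apart.

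**Figure D1:**
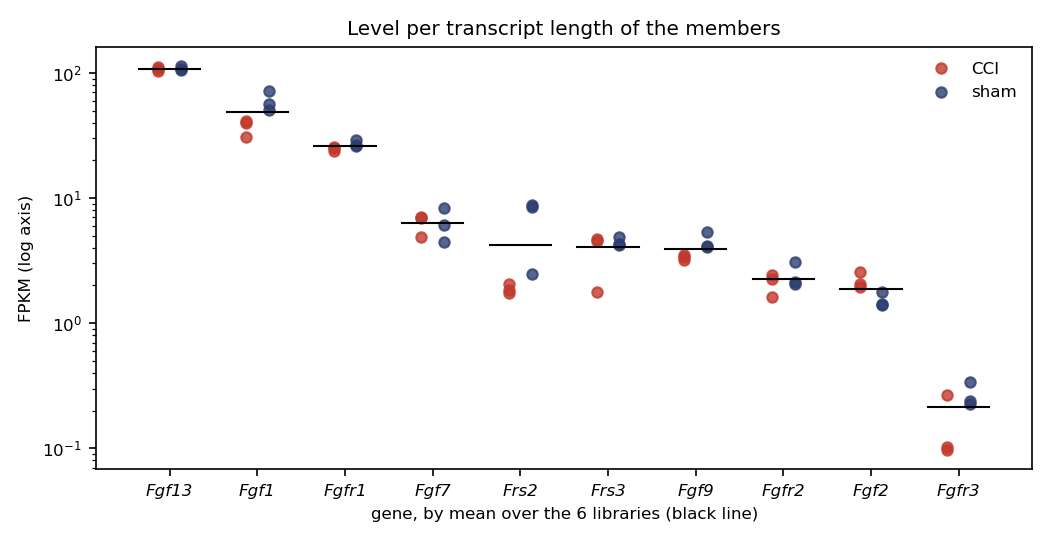
FPKM of the 10 members in each of the 3 CCI (red) and 3 sham (blue) libraries on a log axis, with the mean of the 6 libraries as a black line. Fgf13, Fgf1 and Fgfr1 lay above the rest in every library, and Fgfr3 lay below 0.5 FPKM in every library.

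CCI was compared with sham in edgeR's quasi-likelihood fit over the 26663 rows that passed the filter, and a row was called at the limits used in the study, which are 0.58 for the size of the log2 fold change and 0.05 for the unadjusted p. Frs2 and Fgf1 were the members called lower in the CCI group, 2 of 9 beside 1.26% of all rows, and 0 members were called higher beside 2.57% of all rows, also with DESeq2 and limma. In 4 members, Fgf1, Fgf9, Fgfr1 and Frs2, every CCI library lay below every sham library, as in 8.7% of all rows, and in Fgf2 every CCI library lay above, as in 8.63%. These shares are the background of the contrast on which the members were known, and nothing is read from the difference. At a Benjamini-Hochberg adjusted p under 0.05, edgeR called 0 members beside 0.0938% of all rows, while 5 members had an unadjusted p under 0.05, as did 10.7% of all rows. DESeq2 called 2 members (Fgf1 and Frs2) at the adjusted limit, out of 751 rows in all, and limma on log2(FPKM + 0.1) called 0. The median log2 fold change of the 9 members was -0.21, and that of all rows was 0.0055. In bulk tissue, fewer cells of a type and less RNA per cell cannot be told apart.

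**Figure D2:**
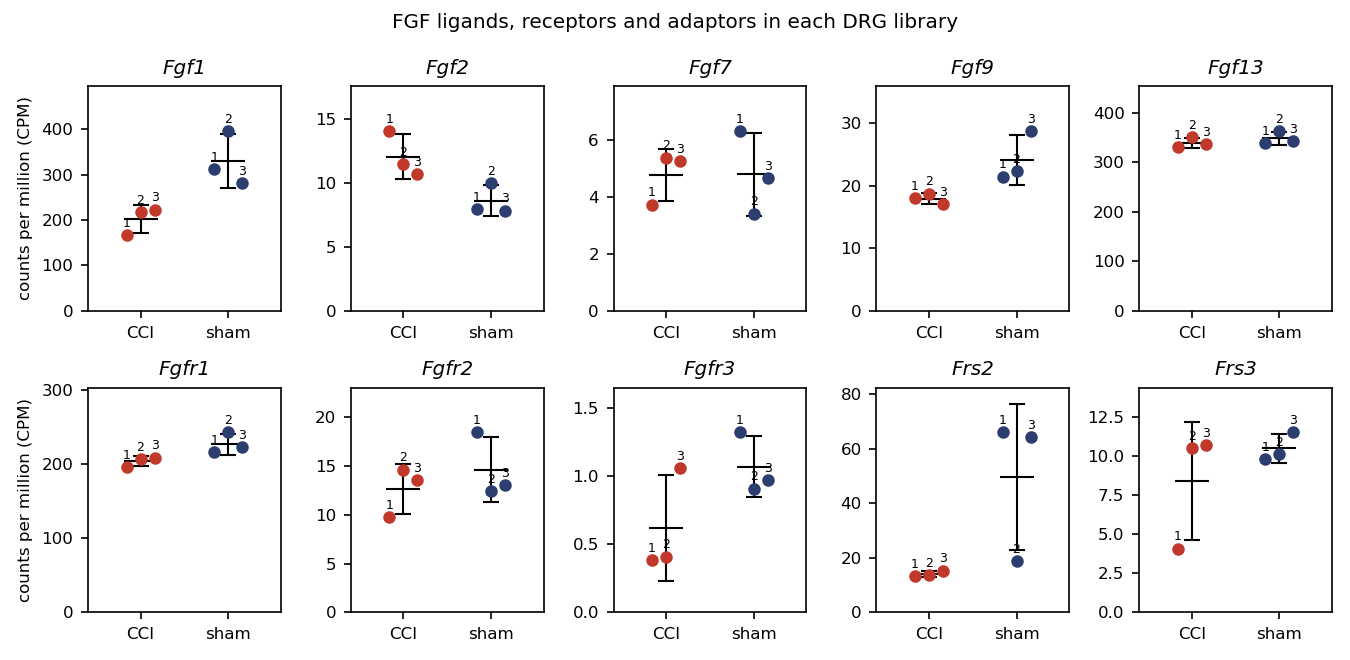
CPM of each member in the CCI (red) and sham (blue) libraries, each point labelled with its replicate number, with the group mean and SD in black (n = 3 per group). The Frs2 panel shows 3 close CCI points, 1 sham point just above them and 2 sham points far above, and the Frs3 panel shows 1 low CCI point.

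Among the secreted ligands, Fgf1, acidic FGF, a ligand able to bind all of the FGF receptors, was read at 167, 218 and 223 CPM in CCI rats 1 to 3 and at 312, 396 and 281 CPM in sham rats 1 to 3. The 2 groups did not overlap, and the highest sham library was sham 2. The means were 203 ± 30.7 and 330 ± 59.5 CPM (SD, n = 3), a log2 fold change of -0.70 ± 0.16 (SE, as for every fold change given here) with a 95% interval from -1.09 to -0.32, or 1.63-fold lower in CCI. Without sham 2 the log2 fold change was -0.55, short of the study's limit of 0.58. The Fgf1 row, at chromosome 18 from 32273770 to 32359824 in the genome the authors call V101, is listed on the plus strand, whereas RefSeq has the gene on the minus strand in GRCr8. The other 8 members with a RefSeq entry had the same strand in both, as did 95.0% of 12735 protein-coding rows and 93 of 96 such rows within 5 Mb of Fgf1. The strand setting of the counting is not given in the sources used here, so reads of Fgf1 and of a transcript opposite to it cannot be told apart. The row is typed as protein-coding, the strands compared are from different genome builds, and the source of the mismatch was not tested.

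Fgf9, a ligand first isolated from glioma cells and known to act on glia, was at 18.0, 18.7 and 17.0 CPM in the CCI rats and at 21.4, 22.3 and 28.7 CPM in the sham rats. All CCI libraries lay below the sham libraries, and sham 3 stood highest. The log2 fold change was -0.43 ± 0.13 (95% interval -0.73 to -0.13), which was under the study's limit. Fgf2, basic FGF, had 1146, 923 and 816 counts in CCI and 700, 794 and 649 counts in sham, with means of 12.1 ± 1.79 and 8.62 ± 1.21 CPM. It was the only member whose 3 CCI libraries lay above all sham libraries, with sham 2 the closest to them. The log2 fold change of 0.49 ± 0.16 (95% interval 0.12 to 0.86) was under the limit, and without sham 2 it was 0.61 and past it. Fgf1 and Frs2 lay past the limits, and Fgf2 and Fgf9 were the nearest members short of them.

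Fgf7, keratinocyte growth factor, a ligand of mesenchymal cells for a splice form of FGFR2, was at 3.73, 5.37 and 5.25 CPM in CCI and at 6.31, 3.41 and 4.66 CPM in sham. The groups overlapped fully and their means were 4.78 ± 0.912 and 4.79 ± 1.46 CPM. The 95% interval of the log2 difference ran from -0.64 to 0.63. Summed over Fgf1, Fgf2, Fgf7 and Fgf9, the secreted ligands reached 41.3, 52.5 and 53.0 FPKM in the CCI libraries and 70.6, 81.7 and 63.2 FPKM in the sham libraries. Fgf1 made up 73.8% to 77.2% of that sum in CCI and 79.8% to 87.3% in sham, so the sum mostly follows Fgf1.

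Fgf13, the intracellular family member that binds sodium channels and microtubules, was the most even member. It was at 331, 351 and 336 CPM in CCI and at 339, 363 and 342 CPM in sham, with a log2 fold change of -0.04 ± 0.05 (95% interval -0.16 to 0.09). The spread within a group was 3.04% of the mean in CCI and 3.91% in sham. Fgf13 is most abundant in neurons, and the summed level of 5 neuronal markers (Rbfox3, Tubb3, Uchl1, Isl1 and Prph) was 5660 to 6080 CPM in CCI and 4580 to 5410 CPM in sham. That sum is carried by Tubb3 (log2 fold change 0.31 ± 0.08) and Prph (0.25 ± 0.08), whereas Isl1 (-0.13 ± 0.07) was lower in every CCI library than in any sham library and Rbfox3 stood at -0.24 ± 0.11, so the markers did not move one way. None of the 5 was called, beside 1.26% of all rows called lower and 2.57% called higher.

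Fgfr1 carried most of the receptor RNA. Among Fgfr1, Fgfr2 and Fgfr3 its share of the FPKM was between 88.5% and 93.3% in the 6 libraries. It was at 196, 207 and 209 CPM in CCI and at 216, 243 and 223 CPM in sham. The groups lay close together without overlap, and the log2 fold change was -0.15 ± 0.06 (95% interval -0.31 to -0.0042). A second row with the symbol Fgfr1, with no type given, lies within the first on the opposite strand, and its 1223, 1234 and 1238 counts in CCI and 1358, 1087 and 1338 counts in sham gave a log2 fold change of 0.04 ± 0.09.

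Fgfr2, the receptor bound by Fgf7 and others, was at 9.71, 14.6 and 13.5 CPM in CCI and at 18.4, 12.4 and 13.0 CPM in sham. CCI 1 was the lowest and sham 1 the highest library, and the other 4 lay between 12.4 and 14.6 CPM. The log2 fold change was -0.21 ± 0.21, with a 95% interval from -0.72 to 0.30. Fgfr3, in the nervous system best known from astrocytes, had 31, 33 and 81 counts in CCI and 116, 72 and 80 counts in sham. These are 0.382, 0.410 and 1.06 CPM against 1.32, 0.908 and 0.969 CPM, with CCI 3 in the range of the sham libraries and the other 2 CCI libraries below it. In the fit without the filter, its log2 fold change was -0.79 ± 0.46.

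CCI 1 was the lowest of the 6 libraries for Fgf1, Fgf13, Fgfr1, Fgfr2, Fgfr3, Frs2 and Frs3, and the highest for Fgf2. In the same library the summed level of 3 fibroblast markers (Col1a1, Dcn and Pdgfra) was 977 CPM, against 1450 to 1590 CPM in the other 5, and that of 5 Schwann cell markers was 6220 CPM, against 6860 to 8690 CPM. The endothelial marker sum was also lowest in CCI 1 (33.4 CPM), while the sums of sensory neuron markers (6080 CPM) and macrophage markers (90.3 CPM) were highest there. The part of these cells in the members' levels was not tested.

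Frs2, the docking adaptor, showed the largest difference between groups among the 9 members tested and also, as the ratio of the highest to the lowest library, the largest spread within a group. It had 1070, 1106 and 1166 counts in CCI rats 1 to 3 and 5784, 1483 and 5294 counts in sham rats 1 to 3, which is 13.2, 13.7 and 15.3 CPM against 65.9, 18.7 and 64.1 CPM. The CCI libraries lay within 1.16-fold of each other, sham 2 stood just above them, and sham 1 and sham 3 stood together far above. The groups did not overlap. The means were 14.1 ± 1.11 and 49.6 ± 26.7 CPM (SD, n = 3), 3.52-fold lower in CCI, with a log2 fold change of -1.82 ± 0.45 and a 95% interval from -2.90 to -0.74.

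The size of the Frs2 difference therefore depends on which sham rats it is measured against. Without sham 2 the log2 fold change was -2.21, without sham 1 it was -1.56 and without sham 3 it was -1.59, and the study's limits were passed each time. In sham, the highest library was 3.52-fold above the lowest. Of the 10853 rows with a mean of at least 1000 counts, 137 (1.26%) spread at least as far among the sham libraries, and their median was 1.13-fold. Skeletal muscle markers (Acta1, Ckm, Mylpf, Tnnt3 and Actn3) summed to 192 CPM in sham 1, 31.6 CPM in sham 3 and 10.6 CPM in sham 2, and to between 8.05 and 15.4 CPM in CCI. Of the 5, 4 were called lower in CCI, beside 1.26% of all rows, and none was at 0. The groups overlapped in each of the 5, and sham 1 was the highest library in each. Sham 1 and sham 3, the libraries with high Frs2, also had the highest muscle marker sums, which were unequal while their Frs2 levels were nearly the same. The part of muscle RNA in the Frs2 values was not tested.

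Frs3, the paralog of Frs2 with the same docking role, did not follow it. It was at 4.07, 10.5 and 10.7 CPM in CCI and at 9.78, 10.1 and 11.5 CPM in sham. CCI 1 stood alone at the low end and the other 5 libraries lay within 9.78 to 11.5 CPM. The log2 fold change was -0.31 ± 0.35 (95% interval -1.16 to 0.54), and without CCI 1 it was 0.02. Per length, the ratio of Frs2 to Frs3 was 0.995, 0.402 and 0.438 in CCI and 2.07, 0.570 and 1.71 in sham, so that Frs2 exceeded Frs3 in sham 1 and sham 3 and in no other library. The sum of both adaptors was 3.51, 6.37 and 6.73 FPKM in CCI and 13.0, 6.77 and 13.3 FPKM in sham, with sham 2 next to the upper CCI libraries.

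**Figure D3:**
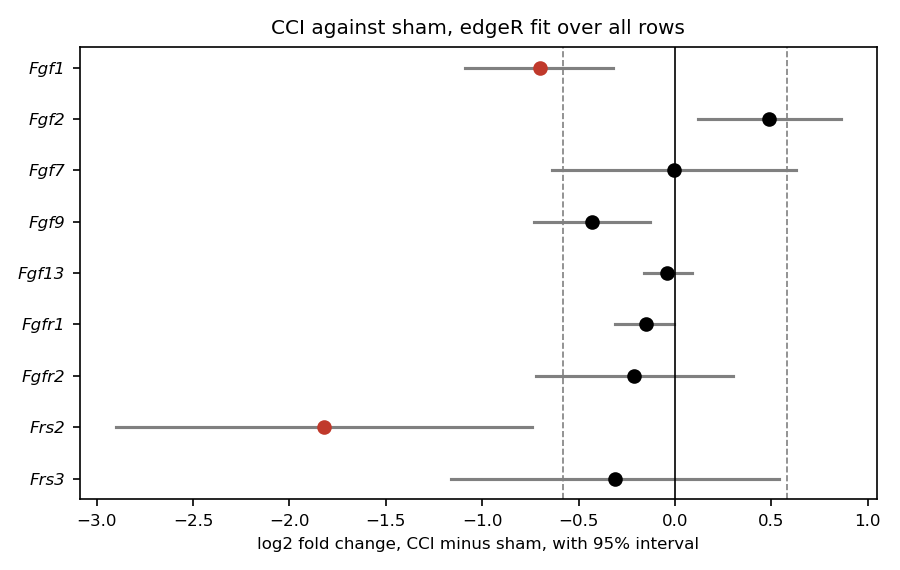
Log2 fold change of the 9 members that passed the filter, CCI minus sham, with its 95% interval from the edgeR fit (n = 3 per group). Dashed lines mark the study's limit of 0.58, and the 2 red points, Fgf1 at -0.70 and Frs2 at -1.82, are the members called.

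The rows within 100 kb of Frs2, which lies on chromosome 7 from 60128233 to 60210484 on the minus strand (V101), were examined next. There were 8 such rows, and 4 had enough counts to be tested. Cct2, a chaperonin subunit whose row ends 5445 bases downstream of Frs2, was at 105, 114 and 107 CPM in CCI and at 103, 122 and 110 CPM in sham. Its log2 fold change of -0.04 ± 0.08 (95% interval -0.23 to 0.14) covers no difference of the size seen in Frs2. Yeats4, a reader of acetylated histones, had a log2 fold change of 0.11 ± 0.17 and the pseudogene row AABR07057196 of 0.10 ± 0.13, and the groups overlapped in each.

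LOC102549714, a long intergenic noncoding RNA 71842 bases upstream on the opposite strand, went the other way. It had 649, 632 and 519 counts in CCI and 318, 286 and 402 counts in sham, and every CCI library lay above every sham library. The means were 7.55 ± 0.638 and 4.03 ± 0.723 CPM, a log2 fold change of 0.91 ± 0.17. It passed the study's limits (unadjusted p = 0.00129) and not the adjusted one (adjusted p = 0.142, edgeR quasi-likelihood test with Benjamini-Hochberg adjustment, and 0.000301 to 0.386 over the alternatives). Its order within sham was not that of Frs2, since sham 1 and sham 2 were nearly equal at 3.62 and 3.61 CPM and sham 3 was highest at 4.87 CPM. The remaining 4 rows in the window, Best3, Lrrc10, LOC100911101 and RGD1306474, were at or below 0.757 CPM in every library.

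The rows whose libraries ran most like Frs2 were found by Pearson's r of log2 CPM across the 6 libraries, which share their depth and their 2 groups, among 20071 tested rows with a symbol. The 5 highest were the pseudogene row AABR07011697 (r = 0.999), Copg2 (0.998), Sdr42e1 (0.993), Glt8d1 (0.992) and Lpar1 (0.991), and 46 rows reached 0.95. The Copg2 and Lpar1 rows carry no transcript type. This ranking did not put protein-coding rows first, so these rows may not stand for the whole genes. AABR07011697 had 98, 90 and 102 counts in CCI and 979, 142 and 817 counts in sham, with a log2 fold change of -2.64 ± 0.64, past the study's limits (adjusted p = 0.234, edgeR with Benjamini-Hochberg adjustment). The row with the symbol of Copg2, a coatomer subunit of transport vesicles, had 5350, 5502 and 5185 counts in CCI. In sham it had 8995, 5713 and 8460 counts, a log2 fold change of -0.45 ± 0.14. Both thus had the Frs2 order, with sham 1 and sham 3 high and sham 2 near the CCI libraries, but at unequal amplitude. In Sdr42e1 (-0.29 ± 0.19), the glycosyltransferase Glt8d1 (-0.11 ± 0.07) and the Lpar1 row (-0.07 ± 0.05) the same order was present at far smaller size. Lpar1 is the symbol of a lysophosphatidic acid receptor. With log2(FPKM + 0.1), 3 of the 5 stayed among the 5 most alike, and without sham 2, 2 of the 5. Among the members, the r to Frs2 was highest for Fgf9 (0.776) and lowest for Fgf2 (-0.914), with the other members tested between -0.098 (Fgf13) and 0.566 (Fgfr2), values that rest on 6 libraries in 2 groups.

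**Figure D4:**
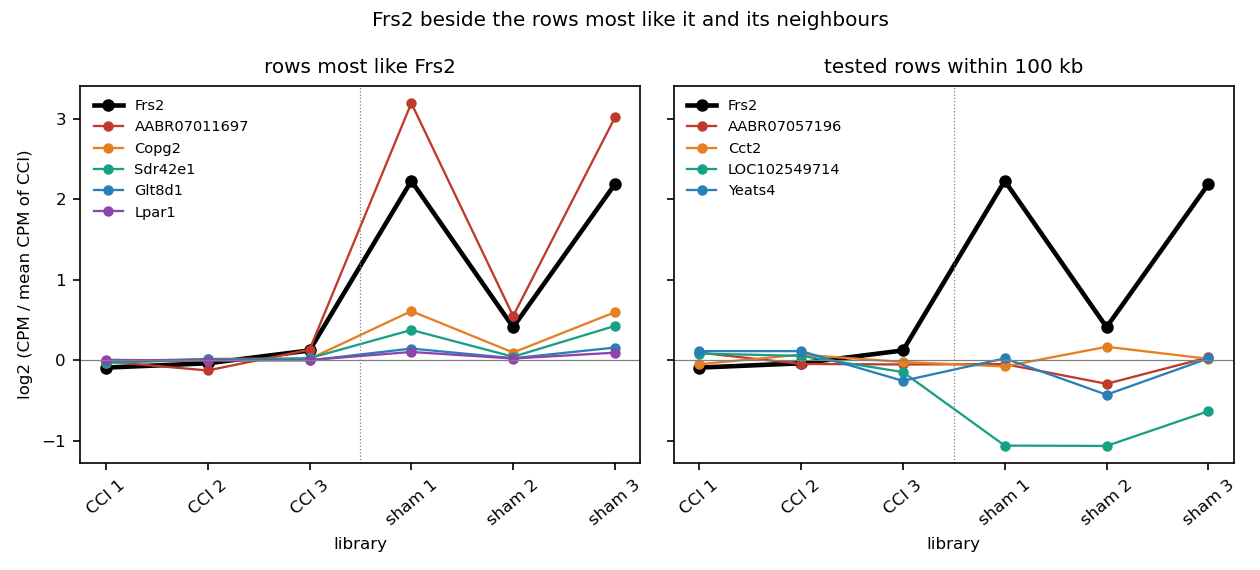
Log2 of CPM over the mean CCI CPM in each library for Frs2 (black) beside the 5 rows with the most similar pattern (left) and beside the 4 tested rows within 100 kb (right). The rows on the left share high sham 1 and sham 3 libraries at unequal amplitude, and on the right LOC102549714 lies below its CCI mean in all sham libraries while the other 3 stay near it.

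The other genes of the pathway were taken from a list of 103 symbols, ordered by role, of which 100 were found and 87 passed the filter. Of these, 1 was called lower (Fgfbp3) and 2 higher (Flrt3 and Sdc1) beside 1.26% and 2.57% of all rows. The groups lay apart in 13 lower genes and 11 higher genes, beside 8.7% and 8.63% of all rows, and the median log2 fold change was -0.02. In all, 18 of the 87 had an unadjusted p under 0.05, beside 10.7% of all rows. At the study's limits both limma fits called the same 3 genes and no other, and DESeq2 called Crk in addition. At a Benjamini-Hochberg adjusted p under 0.05, edgeR called 1 of the 87 (Flrt3). DESeq2 called 7 at that limit (Sdc1, Gpc1, Hs6st1, Fgfbp3, Flrt3, Rasa1 and Etv1), out of 751 rows in all. Fgf15, Klb and Crkl were not analysed here.

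None of the 7 other ligands tested was called, beside 1.26% of all rows called lower and 2.57% called higher. None had an unadjusted p under 0.05 in edgeR, beside 10.7% of all rows. None had groups apart, beside 8.7% of all rows downward and 8.63% upward. Fgf12, like Fgf13 an intracellular member that binds sodium channels, was the highest of them at a mean of 32.4 FPKM (log2 fold change -0.28 ± 0.42), followed by Fgf18 at 4.92 FPKM (-0.20 ± 0.21). The decoy receptor Fgfrl1 (1.03 FPKM, -0.0082 ± 0.14) and Fgfr4 (0.707 FPKM, -0.36 ± 0.26) were both low in level and not called.

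Heparan sulfate proteoglycans present FGFs to their receptors. Of the 18 genes tested for these, their enzymes and FGF binding proteins, 1 was called higher and 1 lower. The shares over all rows were 2.57% and 1.26%. Sdc1, the proteoglycan syndecan-1, was at 15.2, 8.18 and 5.18 CPM in CCI and at 2.85, 2.55 and 2.86 CPM in sham. All CCI libraries lay above the even sham libraries but spread widely among themselves, with a log2 fold change of 1.79 ± 0.38 (adjusted p = 0.189, edgeR with Benjamini-Hochberg adjustment). Fgfbp3, a secreted carrier that releases FGFs from the matrix, was at 1.66, 2.02 and 0.907 CPM in CCI and at 2.99, 3.36 and 3.50 CPM in sham, a log2 fold change of -1.10 ± 0.31 (adjusted p = 0.281, same test). Hs6st1, a 6-O-sulfotransferase of heparan sulfate, was at 100, 99.8 and 99.2 CPM in CCI and at 82.0, 81.1 and 81.7 CPM in sham, with the groups apart and a log2 fold change of 0.29 ± 0.05. Sdc4 (0.24 ± 0.08), Gpc1 (0.48 ± 0.10) and Hs2st1 (0.40 ± 0.11) also had every CCI library above every sham library, under the study's limit. Like Hs6st1, they were named after their values were seen. In all, the groups lay apart upward in 5 of the 18 genes and downward in 1, beside 8.63% and 8.7% of all rows. The most abundant genes of the role, Sdc3 (51.1 FPKM, -0.02 ± 0.05) and Gpc3 (20.6 FPKM, -0.23 ± 0.18), were not called.

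Of 6 membrane partners of FGF receptors tested, Flrt3 rose. It encodes a leucine-rich repeat protein that binds FGF receptors and is also an adhesion and guidance molecule. It was at 106, 75.2 and 69.8 CPM in CCI and at 27.5, 28.4 and 27.5 CPM in sham, and the groups were far apart. The log2 fold change was 1.59 ± 0.16 (adjusted p = 0.0444, edgeR quasi-likelihood test with Benjamini-Hochberg adjustment, and 6.65e-19 to 0.194 over the alternatives). The adjusted p was over 0.05 without CCI 2 (0.124), sham 1 (0.165), sham 2 (0.147) or sham 3 (0.176) in the same test, and the log2 fold change stayed between 1.38 and 1.70 whichever library was left out. Flrt3 was the only pathway gene on the list past the adjusted limit in edgeR. The adhesion molecules L1cam (50.7 FPKM, 0.14 ± 0.05) and Cdh2 (26.0 FPKM, -0.10 ± 0.07) were the most abundant of the role and were not called. Of 5 macrophage markers, 3 were called higher in CCI (Cd68, Csf1r and Cx3cr1), beside 2.57% of all rows. Aif1 (0.50 ± 0.20) and Cd163 (-0.0033 ± 0.43) were not called, and their groups overlapped. The summed level of the 5, mostly Csf1r, was 62.9 to 90.3 CPM in CCI against 41.4 to 59.1 CPM in sham. The part of macrophages in the values of Sdc1 and Flrt3 was not tested.

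Other receptors that use FRS2 as a docking protein were tested beside it. None of the 5 was called, beside 1.26% of all rows called lower and 2.57% called higher. An unadjusted p under 0.05 in edgeR was found in 1, Ntrk3, beside 10.7% of all rows. In Ntrk2, Ntrk3 and Alk every CCI library lay below every sham library, as in 8.7% of all rows. Ntrk2, the receptor of brain-derived neurotrophic factor, had a log2 fold change of -0.17 ± 0.08, Ntrk3, the receptor of neurotrophin-3, -0.24 ± 0.08, and Alk -0.16 ± 0.07. Ret, the receptor for ligands of the GDNF family and the most abundant of the 5 at 76.4 FPKM, stood at 0.11 ± 0.11 with overlapping groups. These differences were much smaller than that of Frs2.

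Downstream of the adaptors, 0 of 17 adaptors and enzymes and 0 of 12 genes of the Ras and ERK cascade were called in edgeR. Of all rows, 1.26% were called lower and 2.57% higher. An unadjusted p under 0.05 was found in 3 and 0 of them, beside 10.7% of all rows. In Pik3ca (0.36 ± 0.10) and Akt1 every CCI library lay above every sham library, as in 8.63% of all rows. In Sos1 (-0.13 ± 0.05), the third of these genes, every CCI library lay below, as in 8.7%. DESeq2 called 1 gene of these roles, Crk, an adaptor that was at 78.4, 85.5 and 81.3 CPM in CCI and at 161, 69.8 and 143 CPM in sham. Its sham 1 and sham 3 libraries were high and its sham 2 library was low, the order also seen among the sham libraries in Frs2. Unlike in Frs2, sham 2 lay below every CCI library, so the groups overlapped. The log2 fold change of Crk was -0.61 ± 0.29 (adjusted p = 0.530, edgeR with Benjamini-Hochberg adjustment). Crk, Pik3ca and Sos1 were named after their values were seen. The partners of FRS2 were even between the groups, with Grb2 at -0.09 ± 0.14 and Ptpn11, which encodes SHP2, at 0.02 ± 0.05 and 25.6 FPKM. The kinase Akt1 was the most abundant of its role (32.3 FPKM, 0.13 ± 0.05), and the ERK kinase Mapk3 (261 FPKM, 0.04 ± 0.06) was the most abundant of the Ras and ERK cascade.

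Several inhibitors and the target genes are themselves transcribed when the pathway is active. None of 13 inhibitors was called, beside 1.26% of all rows called lower and 2.57% called higher. An unadjusted p under 0.05 in edgeR was found in 3 of them, beside 10.7% of all rows. These were the Sprouty genes Spry3 (log2 fold change -0.29 ± 0.12, groups apart) and Spry4 (-0.38 ± 0.15, groups overlapping) and the RasGAP Rasa1. Rasa1 (27.0 FPKM) was at 83.1, 89.4 and 85.8 CPM in CCI and at 107, 106 and 100 CPM in sham, without overlap, a log2 fold change of -0.28 ± 0.06, and Spred2 (18.3 FPKM) was at -0.06 ± 0.06. Of 7 target genes none was called, beside the same shares of all rows called, and 3 had an unadjusted p under 0.05 in edgeR, beside 10.7%. These were the PEA3 group of ETS factors, Etv1, Etv4 and Etv5, which lay lower in every CCI library than in any sham library, as did 8.7% of all rows. Etv1, a factor also needed by proprioceptive neurons, was at 144, 161 and 160 CPM in CCI and at 211, 194 and 205 CPM in sham, a log2 fold change of -0.39 ± 0.07 (19.5 FPKM). Etv4 stood at -0.52 ± 0.17 and Etv5 (15.3 FPKM) at -0.21 ± 0.07, all of them under the limit of 0.58. The other targets were not uniform, with Myc at 0.44 ± 0.20 above sham in every library, and with overlapping groups for Egr1 (0.45 ± 0.35), Fos (0.68 ± 0.52) and Ccnd1 (-0.05 ± 0.29).

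**Figure D5:**
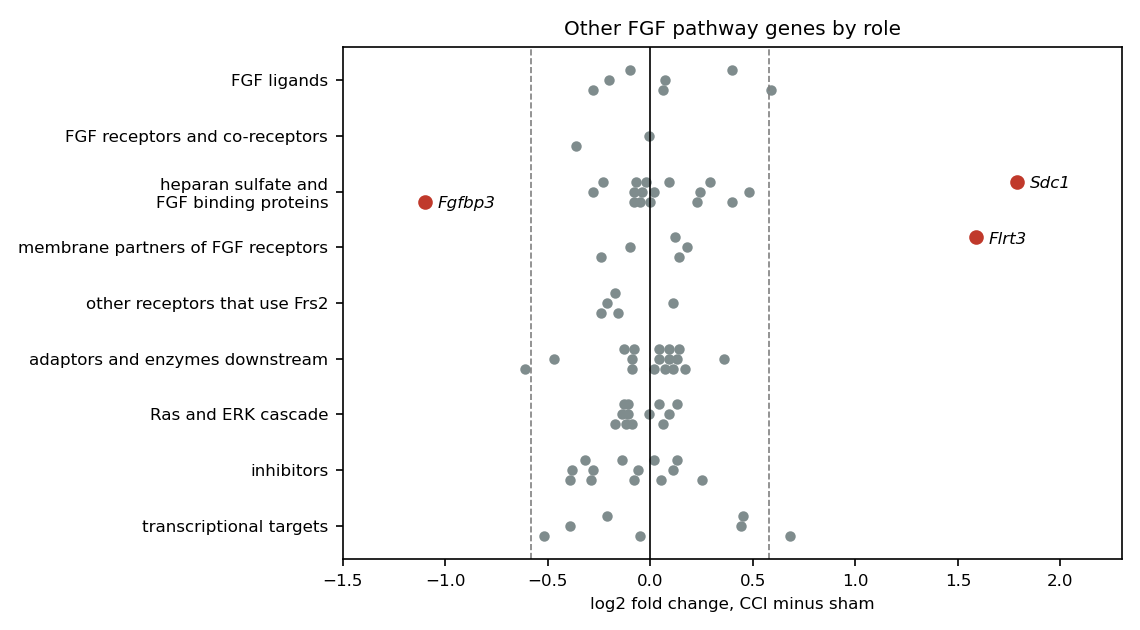
Log2 fold change, CCI minus sham, of the 87 other pathway genes that passed the filter, 1 point per gene, grouped by role. Dashed lines mark the limit of 0.58, and the 3 red points are the genes called, Fgfbp3 at -1.10, Flrt3 at 1.59 and Sdc1 at 1.79.

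The annotation carried by the table places the members in different terms. The term for the FGF receptor signaling pathway held 9 of the 10, all but Fgf13, and was carried by 25 tested rows. Growth factor activity held 6 members and 69 tested rows, heparin binding 4 and 84, and FGF receptor binding 6 and 12. Only Frs2 carried the term for neurotrophin signaling, only Fgf13 that for sodium channel regulation, and the KEGG map of MAPK signaling listed 7 members, the secreted ligands and the receptors, without either adaptor.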

How the data were processed

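RNA of the L4 to L6 DRG of 3 CCI and 3 sham rats was analysed. The authors aligned reads to the rat genome that their methods call V101. The submitters' processing notes name HISAT2 and StringTie 1.3.0. The authors deposited a raw read count and an FPKM value for each of 43350 rows. In all 18684 rows with at least 100 counts in every library, FPKM equalled the count over the column total and a fixed row length, within 2%. Strand use in counting is not given in the sources used here. Rows without a symbol, 6849 in number, held 5.37% to 5.72% of the counts and were kept in library sizes.

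Rows were kept at 0.5 FPKM or more on average, and the 26663 left were fitted with edgeR 4.0.16 (quasi-likelihood test, TMM factors from 0.988 to 1.01, trended prior with 2.52 degrees of freedom), and p-values were adjusted by Benjamini-Hochberg over all of them. Standard errors and 95% intervals are from that fit. Depth was 75423546 to 87615743 counts. Alternatives were DESeq2 1.42.0, limma 3.58.1 on log2(FPKM + 1) and log2(FPKM + 0.1), size factors of the RLE kind, a stricter filter at 1 FPKM on average, all rows unfiltered, a prior without trend, a replicate block and leaving out each library. The fit was tested on simulated counts of 26663 genes with the same dispersion for all, 200 of them changed by 1.5 on the log2 scale. At the study's limits it called 200 of the changed genes and also 910 of the unchanged ones. Software was R 4.3.3 and Python 3.11.15 with matplotlib 3.10.9, numpy 2.4.6 and pandas 2.3.3.

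The members and gene lists were chosen with earlier results of these data known. The genes named are the 10 members, every called gene of the pathway list and the 2 of highest mean FPKM in each role, the 5 rows most like Frs2, and the rows within 100 kb of it. Some genes that this rule names are not reported here. Others were named after their values were seen: the genes whose groups lay apart among the heparan sulfate genes, the receptors using FRS2 and the targets, the remaining targets, Spry3, Spry4, Grb2, Sos1, Pik3ca and Crk.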

Additional observations from a re-analysis of the deposited data

How the results depend on the processing

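Of 182 alternative values of single genes, 174 kept their direction and their side of the study's limits, 1 fell short of them (Fgf1), 1 came to pass them (Fgf2) and 6 turned direction. Frs2 passed the limits in all 14 alternatives, at -1.82 to -1.25 on the log2 scale and at -2.21 to -1.56 when 1 library was left out, and its adjusted p ran from 0.00634 to 0.503. Fgf1 ran from -0.80 to -0.55. Leaving out 1 library, Fgf7 ran from -0.20 to 0.25 and Frs3 from -0.53 to 0.02. Fgf7, near no difference, turned to 0.03 with limma on log2(FPKM + 1), 0.04 with limma on log2(FPKM + 0.1), 0.15 without CCI 1 and 0.25 without sham 1, and Frs3 turned without CCI 1. With a replicate block Fgf7 was at 0.03 and 2 members were called lower as before; the libraries share only a number (correlations of same-numbered deviations from the group means of -0.0106, -0.0218 and -0.0547), and the block changed no call of the members or the other pathway genes at the study's limits, while Flrt3 was at an adjusted p of 0.194.

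Leaving out 1 library gave 1 to 2 members called lower and 0 to 1 called higher, the 1 in each case without sham 2 (Frs2 lower, Fgf2 higher). Of the other pathway genes, 1 to 3 were called lower, with 3 (Fgfbp3, Shc3 and Etv4) without CCI 2, 2 (Fgfbp3 and Fgfr4) without CCI 3 and 2 (Fgfbp3 and Crk) without sham 2, and DESeq2 called 2. From 2 to 3 were called higher, with Egr1 added without CCI 1 and Fgf10 without sham 3. Of the 5 rows most like Frs2, 3 were kept with log2(FPKM + 0.1) and 2 without sham 2. With 3 rats a group and sham 2 near the CCI libraries for Frs2, the size of its difference is not well fixed. Fgfr3, at 31 to 116 counts, was fitted only without the filter.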

Other observations

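The pattern of Frs2 over all 6 libraries was shared at r of 0.9 or more by 134 of 20071 tested rows with a symbol. That r takes in the difference between the groups as well as the order among the sham rats. Fgf5 and Fgf10, ligands that were not called in the fit over all libraries, were each called higher in 1 alternative, Fgf5 with a prior without trend and Fgf10 without sham 3. Fgf22, a ligand known from synapse formation, had the smallest standard error of the other ligands, at a log2 fold change of 0.06 ± 0.09.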
